A study of Mus musculus with 2 samples.

Results

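Chemokine mRNA was measured in the liver of control and iFIRKO mice for 10 genes: *Cxcl1*, *Cxcl9*, *Cxcl10*, *Cxcl12*, *Cxcl13*, *Cxcl16*, *Ccl2*, *Ccl5*, *Ccl6* and *Ccl9*. They were taken from the 53241 gene symbols of the deposited tables by name. The names were selected on their reads in these same libraries, so every difference between the libraries for these 10 genes is a description and carries no test. Poly(A) RNA sequencing had been run on 1 control library and 1 iFIRKO library. Both groups were male mice given tamoxifen at 100 mg/kg from 7 weeks of age on 5 days, with the liver collected 3 days after the final dose. iFIRKO mice carried Adipoq-CreERT2, a Cre recombinase driven by the adiponectin promoter and active only with tamoxifen, together with Insr flox/flox, so that the insulin receptor gene is lost in adipocytes. The sample labels give the control genotype as WT, and the methods of the study describe floxed animals without Cre. How many mice went into each liver library is not stated. With 1 library per group, no difference has a replicate check.

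Chemokines are small secreted proteins that direct the migration of leukocytes by binding G protein-coupled receptors, and most are retained on heparan sulfate of the vessel wall. The CXC and CC subfamilies are named for the spacing of a pair of cysteines near the amino terminus. Some are made constantly and position resident cells, whereas others are induced by NF-κB, interferon or both when a tissue is inflamed. In the liver they are produced by hepatocytes, Kupffer cells, sinusoidal endothelial cells and stellate cells, and they govern the entry of neutrophils, monocytes and lymphocytes into the sinusoids.

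Values are normalized reads, that is, the deposited log2 normalized read count returned to the linear scale. The 2 libraries held 42003900 and 41579630 normalized reads (control and iFIRKO), and about 1.99 and 2.01 of these stood for 1 read pair. *Alb*, the hepatocyte gene for albumin, had 4167154 and 3944155 normalized reads, and *Adipoq*, the adipocyte gene for adiponectin, was listed at 0 in control liver and at 2.01 normalized reads in iFIRKO liver. *Insr* had 4246 and 3692 normalized reads, which is no check of the deletion, because that is confined to adipocytes. Genes with at least 41.8 normalized reads in either library were compared, 13400 in all, and fold changes were formed after 4.18 normalized reads had been added to both values. Intervals are exact 95% intervals from the read pairs. They cover counting error only, and they compare these libraries rather than the genotypes.

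The 300 bases around the start of 3 inducible chemokine genes that were lower in the iFIRKO library, and of *Cxcl12*, which was nearly level, are printed first (RefSeq, GRCm38.p6, 250 bases before the start and 50 from it, read 5′ to 3′ on the strand of the gene). Capitals mark matches to the κB motif, the site bound by NF-κB, searched on both strands in a pair of overlapping forms, the 10-base consensus and the 9-base core GGGNNTTCC.
Cxcl1 (chr5:90890995-90891294, forward strand): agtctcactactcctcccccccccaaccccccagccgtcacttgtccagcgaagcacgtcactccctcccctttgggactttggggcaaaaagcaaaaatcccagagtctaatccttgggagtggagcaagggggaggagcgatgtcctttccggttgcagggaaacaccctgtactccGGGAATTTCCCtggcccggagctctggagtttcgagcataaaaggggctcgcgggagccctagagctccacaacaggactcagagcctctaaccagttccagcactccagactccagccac
Cxcl9 (chr5:92328030-92328329, reverse strand): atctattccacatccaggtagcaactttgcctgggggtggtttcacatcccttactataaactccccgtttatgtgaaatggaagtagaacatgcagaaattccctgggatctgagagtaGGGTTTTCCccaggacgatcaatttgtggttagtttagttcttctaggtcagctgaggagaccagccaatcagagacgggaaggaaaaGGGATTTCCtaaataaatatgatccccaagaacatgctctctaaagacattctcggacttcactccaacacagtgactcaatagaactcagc
Cxcl10 (chr5:92348840-92349139, reverse strand): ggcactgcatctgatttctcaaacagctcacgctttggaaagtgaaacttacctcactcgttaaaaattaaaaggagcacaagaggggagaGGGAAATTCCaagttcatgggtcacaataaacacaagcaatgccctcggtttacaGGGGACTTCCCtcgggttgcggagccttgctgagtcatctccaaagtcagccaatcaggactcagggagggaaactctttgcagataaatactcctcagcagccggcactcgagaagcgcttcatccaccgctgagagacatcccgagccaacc
Cxcl12 (chr6:117168285-117168584, forward strand): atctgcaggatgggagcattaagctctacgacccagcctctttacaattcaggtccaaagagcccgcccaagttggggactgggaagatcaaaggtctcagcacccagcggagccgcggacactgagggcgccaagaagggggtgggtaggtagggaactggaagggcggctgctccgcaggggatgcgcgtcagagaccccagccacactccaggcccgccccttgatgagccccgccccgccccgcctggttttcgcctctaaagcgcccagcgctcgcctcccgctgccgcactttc

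In *Cxcl1* the consensus matched on both strands in overlapping positions, from base 71 upstream of the start. *Cxcl9* held 2 matches to the core, beginning 130 and 42 bases upstream, and *Cxcl10* held a match at 159 and overlapping matches at 104 and 103 bases upstream. No match to either form lay in the *Cxcl12* window, nor in those of *Cxcl13* and of *Ccl6*, which was also more than 1.5-fold lower (log2 fold change -0.87). A promoter sequence was at hand for 7 of the 10 genes (not for *Cxcl16*, *Ccl2* and *Ccl5*), and 4 of the 7 held a match to either form, against 11.9% of 32851 mouse promoter windows of the same length. Of 20 other chemokine genes with a promoter sequence, 7 held a match (*Cxcl2*, *Cxcl3*, *Ccl1*, *Ccl19*, *Ccl20*, *Ccl25* and *Ccl27a*). Of these only *Ccl25* and *Ccl27a* passed the expression minimum, and neither was more than 1.5-fold lower. Among the members the other one with a match was *Ccl9*, from base 35 upstream on the opposite strand. Matches to the interferon-stimulated response element core GAAANNGAA were found in *Cxcl9* and *Cxcl10* (8.56% of all windows), and the STAT motif TTCNNNGAA was found in none of the 7 (8.30% of all windows). A match describes the letters of the window, and neither binding nor activity was measured.

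Of the 10 chemokines, 7 were more than 1.5-fold lower in the iFIRKO library (*Cxcl1*, *Cxcl9*, *Cxcl10*, *Ccl2*, *Ccl5*, *Ccl6* and *Ccl9*) and none was more than 1.5-fold higher. Among all 13400 genes compared, 7.28% were lower and 4.46% higher by this measure. Of the members, 3, *Cxcl1*, *Ccl2* and *Ccl9*, were more than 2-fold lower, against 1.99% of all genes. Both *Ccl2* and *Ccl5* reached the expression minimum only in control liver, which favours a lower call. With the minimum required in both libraries, 5 of 8 members were more than 1.5-fold lower, against 5.57% of all genes. The counting interval of the fold change spanned 0 for *Cxcl13* and *Ccl5*. The median log2 fold change of the 10 was -0.86, whereas that of all genes was 0.008. The genes were chosen with these values in view, so the shares describe the set and do not test it.

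**Figure D1:**
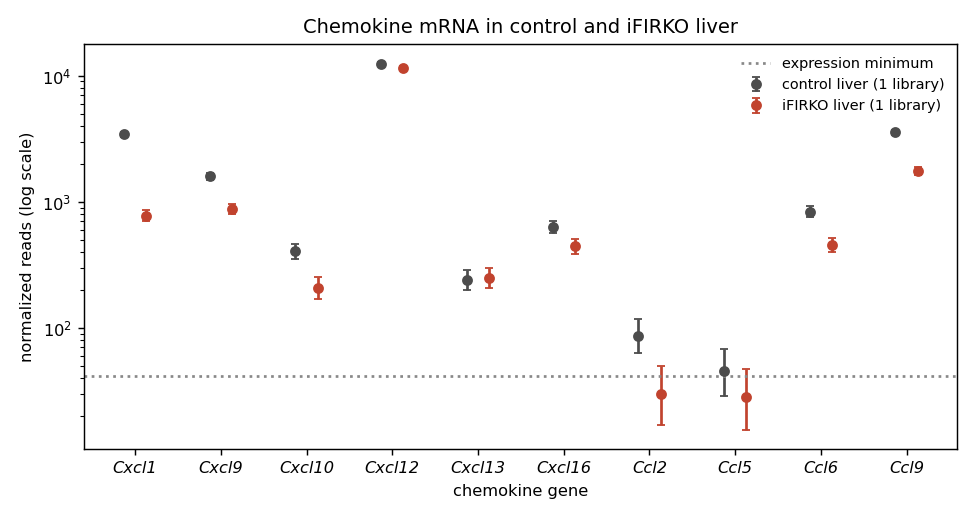
Normalized reads of each chemokine gene (log axis) in the control library (grey) and the iFIRKO library (red), with exact 95% counting intervals and a dotted line at the expression minimum of 41.8 normalized reads. *Cxcl1* showed the widest gap, from 3436 to 778 normalized reads, while *Cxcl12* and *Cxcl13* were close together in the 2 libraries.

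*Cxcl1* encodes the main mouse ligand of Cxcr2 for neutrophil recruitment, a counterpart of human GROα, and is rapidly induced by IL-1, TNF and IL-17 through NF-κB. It had 3436 normalized reads in control liver (interval 3275 to 3601) and 778 in iFIRKO liver (703 to 861). The iFIRKO library thus held 22.6% of the control value, a log2 fold change of -2.14 (interval -2.30 to -1.98). Only 12 of the 13400 genes had a lower log2 fold change, and only 2 did so among the 8380 genes that reached 418 normalized reads in either library. The genes whose pair of values lay nearest to that of *Cxcl1* (Euclidean distance on the log2 scale over the 2 libraries) were *Slc22a26* (distance 0.38), *A1bg* (0.45), *Prtn3* (0.67), *Irs2* (0.69) and *Ier2* (0.70). With 2 libraries, such a distance says only that both level and fold were similar. The ligands nearest in sequence family were scarce: *Cxcl2* had 9.94 and 8.65 normalized reads in control and iFIRKO liver, *Cxcl3* had 0 and 2.01, and *Cxcl5* was listed at 0 in both.

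**Figure D2:**
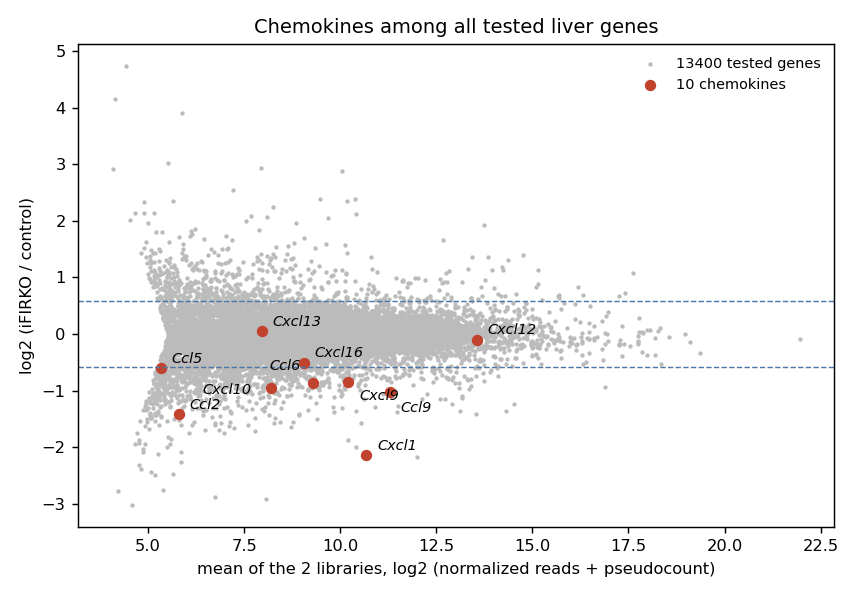
Log2 fold change (iFIRKO over control) of 13400 genes against their mean log2 level in the 2 libraries, with the 10 chemokines in red and dashed lines at a fold of 1.5 in each direction. *Cxcl1* lay at -2.14, near the lower edge of the genes of similar level, and *Ccl5* and *Ccl2* lay at the low end, where the cloud of all genes widens.

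The 3′ untranslated region of *Cxcl1* is known for AUUUA pentamers, which bind proteins that regulate mRNA decay. In the longest annotated region of each gene (GENCODE M21), *Cxcl1* held 7 pentamers in 592 bases, or 11.8 per kilobase, and 99.6% of the 12000 compared genes with a region of at least 50 bases held fewer per kilobase. The densest 30 bases are shown beside those of *Ccl6*, the member next in density, with pentamers in capitals.
Cxcl1 (bases 79 to 108 of the region): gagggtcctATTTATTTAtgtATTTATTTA
Ccl6 (bases 65 to 94 of the region): ccttgtttttatagatATTTAaagcATTTA

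The *Cxcl1* window held 4 pentamers and that of *Ccl6* held 2. *Ccl6* had 4.24 pentamers per kilobase, *Ccl2* had 3.64, *Cxcl10* had 3.01 and *Cxcl13* had 2.50, against a median of 1.33 over the compared genes. *Ccl5* had none, and *Cxcl12* had 0.771 per kilobase. *Ccl9* had 2.03, *Cxcl16* had 1.41 and *Cxcl9* had 1.22. *Cxcl1* had both the highest density and the lowest log2 fold change of the 10, but the remaining genes did not keep the same order in both. *Ccl6*, next in density, had a log2 fold change of -0.87, *Ccl2* had -1.41, and *Ccl9*, at 2.03 per kilobase, had -1.02. *Cxcl13*, above the median in density, had the highest log2 fold change. Of 10 regulators of mRNA stability, 2 were more than 1.5-fold lower and none higher, beside 7.28% and 4.46% of all genes compared. With 10 genes no difference from those shares can be read. Their median log2 fold change was -0.18, and 3 of the 10 lay above 0. *Zfp36*, which encodes tristetraprolin, a protein that binds such elements and promotes decay, had 11825 normalized reads in control liver and 6527 in iFIRKO liver, a log2 fold change of -0.86 (interval -0.92 to -0.80). Its relative *Zfp36l1* had 15228 and 9120.3, a log2 fold change of -0.74. Decay of mRNA was not measured, and a part of the pentamers or of these proteins in the chemokine values was not tested.

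*Cxcl9* and *Cxcl10* encode ligands of Cxcr3, the receptor of activated T cells and NK cells, and both are induced by interferon-γ. *Cxcl9* had 1593 normalized reads in control liver and 879.7 in iFIRKO liver, a log2 fold change of -0.85 (interval -1.03 to -0.69). *Cxcl10* had 407 and 207, a log2 fold change of -0.96 (interval -1.33 to -0.63). Their intervals overlap widely, and the ratio of *Cxcl9* to *Cxcl10* reads was 3.91 in control liver and 4.24 in iFIRKO liver. The remaining Cxcr3 ligand, *Cxcl11*, lies beside them and had 229 and 253 normalized reads, a log2 fold change of 0.14 (interval -0.23 to 0.53). Transcripts of *Cxcr3* numbered 21.9 and 14.1 normalized reads, below the minimum. The opposite strand of *Cxcl10* holds part of *Art3*, which had 63.0 and 69.5 normalized reads, and no source says that reads were assigned by strand.

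*Cxcl12* and *Cxcl13* belong to the homeostatic chemokines. *Cxcl12*, which retains haematopoietic cells and lymphocytes through Cxcr4 and is scavenged by Ackr3, had 12439.5 normalized reads in control liver and 11598 in iFIRKO liver. The iFIRKO library held 93.2% of the control value, a log2 fold change of -0.10 (interval -0.15 to -0.05). *Cxcl13*, the B cell attractant that binds Cxcr5, had 241 and 249.8, a log2 fold change of 0.05 (interval -0.32 to 0.43), and no difference was detectable at this depth. *Cxcl16*, which is made as a membrane-bound protein and binds Cxcr6 on NKT cells and T cells, had 630.4 and 444 normalized reads. Its log2 fold change of -0.50 (interval -0.76 to -0.26) did not reach 1.5-fold. The gene overlaps *Zmynd15* on the opposite strand, which had 504 and 299.7 normalized reads, so the value of *Cxcl16* is uncertain if reads were counted without strand.

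All 4 CC members were more than 1.5-fold lower, though *Ccl2* and *Ccl5* reached the minimum only in control liver. *Ccl9* and *Ccl6*, rodent chemokines that bind Ccr1 and are abundant in macrophages and other myeloid cells, were the most strongly expressed of them. *Ccl9* had 3568 normalized reads in control liver and 1760.4 in iFIRKO liver, a log2 fold change of -1.02 (interval -1.14 to -0.90). *Ccl6* had 835 and 456, a log2 fold change of -0.87 (interval -1.11 to -0.63). The ratio of *Ccl9* to *Ccl6* reads was 4.27 in control liver and 3.86 in iFIRKO liver, so the pair of neighbouring genes kept similar proportions. *Ccl2*, the monocyte attractant that binds Ccr2, had 86.9 and 30.1 normalized reads, from 44 and 15 read pairs, a log2 fold change of -1.41 (interval -2.49 to -0.66). With 41.8 normalized reads added in place of 4.18, the log2 fold change of *Ccl2* was -0.84. *Ccl5*, which draws T cells and monocytes, had 45.2 and 28.3, from 23 and 14 read pairs. The log2 fold change of *Ccl5* was -0.61 (interval -1.77 to 0.32), so that a difference was not detectable from so few pairs, and it was -0.31, short of 1.5-fold, with the larger addition. Under a minimum of 209 normalized reads, which leaves out *Ccl2* and *Ccl5*, 5 of 8 members were lower, against 4.34% of all genes at that minimum.

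Levels of different genes can be compared only per length, and reads per kilobase of merged annotated exons are used for that. The merged exons of *Cxcl1* and of *Cxcl10* cover the whole span of the gene, introns included, which lowers both values on this scale. The order below is therefore approximate. In control liver *Cxcl1* was highest at 1833 normalized reads per kilobase, followed by *Cxcl12* (1521), *Ccl9* (1172), *Cxcl9* (528), *Ccl6* (465), *Cxcl13* (209), *Cxcl16* (209), *Cxcl10* (181), *Ccl2* (76.4) and *Ccl5* (47.1). Counting intervals of neighbours in this order overlapped for *Cxcl9* and *Ccl6*, for *Cxcl13*, *Cxcl16* and *Cxcl10*, and for *Ccl2* and *Ccl5*. In iFIRKO liver *Cxcl12* was highest at 1419 normalized reads per kilobase, *Ccl9* had 578, and *Cxcl1* followed at 415. The order of the other genes stayed the same except for *Ccl2* and *Ccl5*, whose intervals overlapped. As a share of the reads of all 10 genes, without regard to length, *Cxcl1* made up 14.8% in control liver and 4.74% in iFIRKO liver, and *Cxcl12* made up 53.4% and 70.6%. The ratio of *Cxcl12* to *Cxcl1* reads, which does not depend on the scaling between libraries, was 3.62 in control liver and 14.9 in iFIRKO liver.

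Of the 28 other chemokine genes searched, 9 passed the minimum, 2 were more than 1.5-fold lower and none was higher, with a median log2 fold change of 0.02. Beside this, 7.28% of all genes compared were lower, and *Ccl21a*, among the 2, reached the minimum only in control liver. The lower ones were *Ccl24*, an eosinophil attractant, with 194 normalized reads in control liver and 114 in iFIRKO liver (log2 fold change -0.74, interval -1.26 to -0.28), and *Ccl21a*, a lymphoid chemokine with near-identical copies, with 52.9 and 29.8 (-0.75, interval -1.85 to 0.13). *Ccl25* had 194 and 198, *Ccl27a*, which also has near-identical copies, had 179 and 140.3, and *Cx3cl1* had 43.7 and 48.3. The platelet chemokines *Pf4* and *Ppbp* had 39.7 and 44.3, and 59.6 and 42.3. The remaining 19 did not reach the minimum, and 8 of them were listed at 0 in both libraries. Among these scarce genes *Ccl3* had 11.9 and 6.04 normalized reads, *Ccl4* had 16.5 and 6.23, *Ccl7*, which shares Ccr2 with *Ccl2*, had 33.8 and 20.2, and *Xcl1* had 12.7 and 0.

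**Figure D3:**
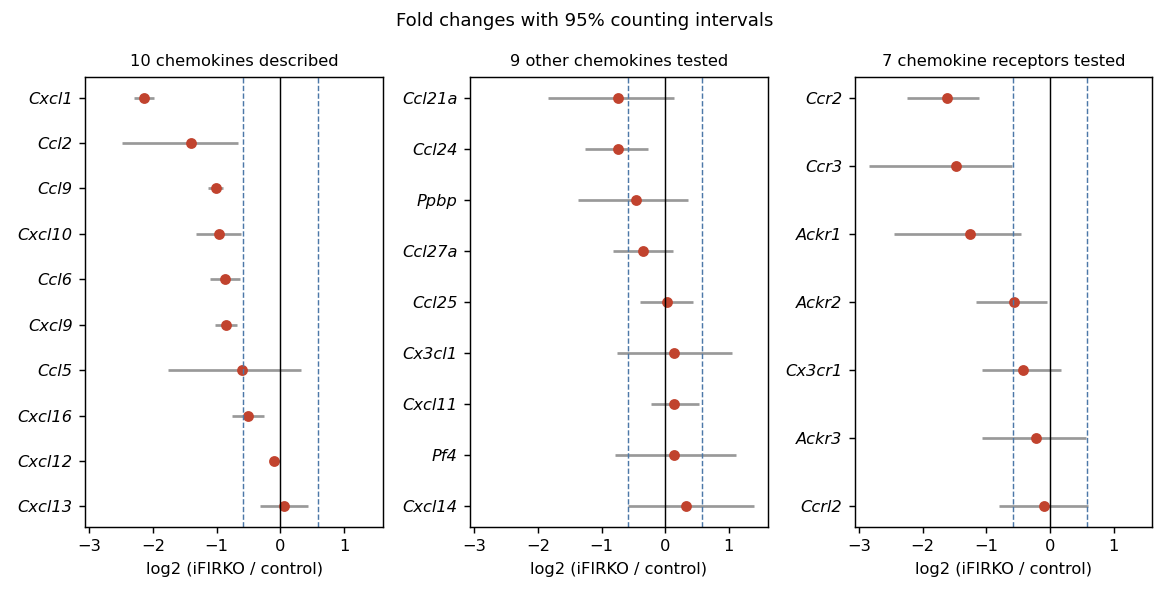
Log2 fold change (iFIRKO over control) with exact 95% counting intervals for the 10 chemokines described, the 9 other chemokine genes that passed the minimum and the 7 receptor genes that did, with dashed lines at a fold of 1.5. The values of the 10 run from -2.14 to 0.05, those of the other chemokines from -0.75 to 0.33, and all those of the receptors lie below 0.

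Most receptor genes considered were scarce in whole liver. Of 23 classical and atypical receptor genes, 7 passed the minimum, 3 were more than 1.5-fold lower and none was higher. Over all genes compared, 7.28% were lower and 4.46% higher. Of the 3, *Ccr3* and *Ackr1* reached the minimum only in control liver, which favours a lower call. With the minimum required in both libraries, 1 receptor gene was lower. *Ccr2*, the receptor for Ccl2 on inflammatory monocytes, had 236 normalized reads in control liver and 74.2 in iFIRKO liver, a log2 fold change of -1.62 (interval -2.24 to -1.12). *Ccr3*, the eotaxin receptor, had 63.3 and 20.1 (-1.47, interval -2.85 to -0.60), and *Ackr1*, an atypical receptor of venular endothelium and erythroid cells, had 69.9 and 26.7 (-1.26, interval -2.45 to -0.46). *Cxcr2*, the receptor for Cxcl1, had 31.8 and 16.1 normalized reads and stayed below the minimum, as did *Cxcr4* (41.7 and 30.2), *Cxcr5* (17.9 and 6.04), *Cxcr6* (19.9 and 12.1) and *Ccr1* (19.9 and 18.1). *Ackr3*, which scavenges Cxcl12, had 59.6 and 50.3, a log2 fold change of -0.23 (interval -1.07 to 0.57). Of 6 processing enzymes that passed the minimum, 2 were lower, *Ctss* (3930.4 and 2322, log2 fold change -0.76) and *Mmp9* (51.7 and 30.2, -0.70). *Mmp9*, too, reached the minimum only in control liver. *Dpp4*, which trims the amino terminus of Cxcl10 and Cxcl12, had 5581 and 5324 (-0.07), and *Adam10*, which sheds Cxcl16, had 1302 and 1218.

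The members lie on 3 chromosomes, and 7 of them belong to 4 groups of chemokine genes (GENCODE M21, GRCm38). *Cxcl12*, *Cxcl13* and *Cxcl16* lie outside these groups. On chromosome 5, *Cxcl1* (90891241 to 90893115) sits in a group of 7 CXC genes over 147 kb, *Cxcl9* (92321347 to 92328079) and *Cxcl10* (92346638 to 92348889) adjoin *Cxcl11* within 44.1 kb, and *Cxcl13* lies at 95956951 to 95961068. On chromosome 11, *Ccl2* (82035571 to 82037453) heads a group of 6 CC genes, *Ccl5* (83525778 to 83530518), *Ccl9* (83572919 to 83578636) and *Ccl6* (83587882 to 83593087) belong to a group of 5 over 139 kb, and *Cxcl16* is at 70453983 to 70459984. *Cxcl12* is on chromosome 6 (117168535 to 117181367). In these 4 groups, 10 of 21 chemokine genes passed the minimum. Those lower by over 1.5-fold numbered 7, all members chosen on these same reads. This count therefore repeats the selection and tests nothing about the groups. *Ccl2* and *Ccl5*, among the 7, passed only in control liver. The rest that passed were *Cxcl11* (log2 fold change 0.14), *Pf4* (0.14) and *Ppbp* (-0.46), and none of these reached 1.5-fold. Of 25 other genes that passed the minimum inside the groups or within 250 kb, none was lower and 2 were higher. The shares of all genes were 7.28% and 4.46%, and with so few genes no difference from them can be read.

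Genes that act on chemokine transcription, or are induced by the same pathways, had list medians between -0.44 and -0.06 on the log2 scale. Over all genes compared, the shares were 7.28% lower and 4.46% higher, and the counts below were not tested against them. Of 15 NF-κB subunit and inhibitor genes, 4 were more than 1.5-fold lower and none higher, with a median log2 fold change of -0.21. The 4 were *Relb* (178 normalized reads in control liver and 93.5 in iFIRKO liver, log2 fold change -0.90), *Tnfaip3* (-0.69), *Nfkbie* (-0.65) and *Nfkbiz* (-0.64), which apart from *Relb*, a subunit, encode inhibitors or cofactors and are themselves NF-κB targets. *Rela*, the main activating subunit, had 2587 and 2707, a log2 fold change of 0.07. Of 16 NF-κB target genes outside the chemokines, 11 passed the minimum and 2 were lower, *Il1a* (228 and 127, log2 fold change -0.82) and *Il1b* (189 and 119, -0.65), which encode interleukin-1. The hepatocyte acute phase targets lay on the other side of 0, with log2 fold changes of 0.49 for *Saa3*, 0.40 for *Saa2*, 0.13 for *Saa1* and 0.34 for *Lcn2*, none of them past 1.5-fold. Reads of *Saa1* and *Saa2*, close copies, may be split between them. *Tnf* had 17.9 and 10.1 normalized reads and *Il6* had 21.8 and 20.1, both below the minimum.

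Of 15 receptor and adaptor genes of the TLR, IL-1, TNF and IL-17 pathways, which lead to *Cxcl1* transcription, 2 were lower and 1 was higher. Among all genes compared, 7.28% were lower and 4.46% higher, and with 15 genes no difference from those shares can be read. The lower ones were *Tlr2* (206 normalized reads in control liver and 123 in iFIRKO liver, log2 fold change -0.73) and *Cd14* (334 and 219, -0.60), and the higher one was the endotoxin receptor *Tlr4* (65.1 and 116, 0.79). *Tnfrsf1a* (0.00), *Myd88* (-0.01) and *Il1rap* (-0.06) had log2 fold changes near 0, and *Il17ra* had -0.45. The interferon-γ list holds receptor and signalling genes upstream of *Cxcl9* and *Cxcl10*, together with genes that interferon-γ induces. In it 14 of 16 genes passed the minimum, and 5 were lower, a count not tested against the 7.28% of all genes. All 14 had a log2 fold change below 0, with a median of -0.44. The 5 lower ones, *Gbp2*, *Gbp3*, *Gbp5*, *Gbp7* and *Ciita*, are induced genes. The genes with most reads in the list, *Iigp1* (-0.44), *Irgm1* (-0.30) and *Igtp* (-0.36), are also induced and did not reach 1.5-fold. Nor did the receptor and kinase genes *Ifngr1* (-0.32), *Ifngr2* (-0.02), *Jak1* (-0.01) and *Jak2* (-0.45). *Gbp5*, a guanylate-binding protein gene, had 248 and 122 normalized reads (interval of the log2 fold change -1.51 to -0.58), *Gbp3* had 1428 and 812 (log2 fold change -0.81) and *Irf1* had 2252 and 1656 (-0.44). *Ifng* itself was listed at 0 in both libraries.

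**Figure D4:**
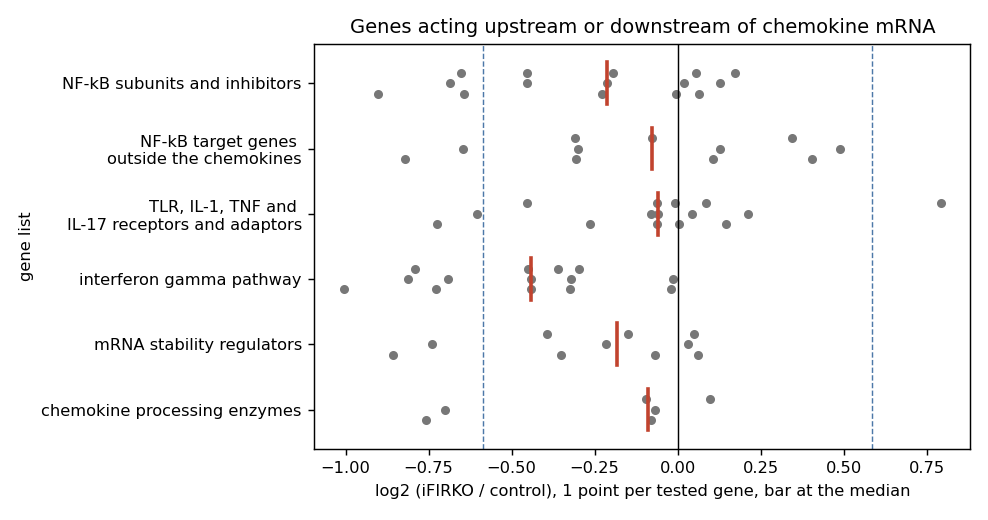
Log2 fold change (iFIRKO over control) of each gene that passed the minimum in 6 gene lists, with a red bar at the list median and dashed lines at a fold of 1.5. The interferon-γ list lies wholly below 0 with a median of -0.44, while the medians of the other lists lie between -0.21 and -0.06.

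Markers of several cell types that make or follow chemokines differed between the libraries in the same direction. In bulk tissue, fewer cells of a type and less RNA per cell cannot be told apart. All 12 Kupffer cell and macrophage markers were below their control value and 9 were more than 1.5-fold lower, with 47824 summed normalized reads in control liver and 30843 in iFIRKO liver, a log2 ratio of -0.63 (interval -0.66 to -0.60). *Clec4f*, the defining Kupffer cell gene, had 8728 and 5677. For monocytes the 6 markers summed to 1209 and 559 (log2 ratio -1.11), for neutrophils 11 markers summed to 712 and 274 (-1.38), for B cells 7 summed to 859.6 and 384 (-1.16), for T and NK cells 12 summed to 479 and 282 (-0.76), and for dendritic cells 6 summed to 248 and 164 (-0.60). Of these markers, 5 of 6 for monocytes, 3 of 11 for neutrophils, 6 of 7 for B cells, 4 of 12 for T and NK cells and 2 of 6 for dendritic cells passed the minimum, and 5, 3, 5, 3 and 2 of them were more than 1.5-fold lower. Among all genes compared, 7.28% were lower. The lower markers *Ly6c2*, *Ms4a4c*, *S100a8*, *Cd79a*, *Pax5*, *Gzma*, *Gzmb* and *Itgax* reached the minimum only in control liver. A scarce gene that passes in this way is more readily called lower, so these counts are no independent support. The neutrophil sum rested mostly on *Csf3r* (259 and 126), *S100a9* and *S100a8*, and *Ngp* and *Ly6g* had higher values in iFIRKO liver at under 5 read pairs. The neutrophil genes *S100a8* (117 and 32.2) and *S100a9* (228 and 64.7) had log2 fold changes of -1.74 and -1.75, and *Ly6g*, their defining surface marker, had 1.81 and 3.27, from 1 and 2 read pairs.

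Sinusoidal endothelial markers summed to 13672 and 9862 normalized reads (log2 ratio -0.47), with 3 of 8 more than 1.5-fold lower. Stellate cell markers summed to 12111 and 13132 (0.12), cholangiocyte markers to 2347 and 2026 (-0.21), and erythroid markers to 13455 and 27006 (1.01), while the 8 hepatocyte markers had a log2 ratio of -0.09. The hepatocyte sum was mostly *Alb* (-0.08). Single hepatocyte markers ran from -0.94 for *Apoa1*, which was more than 1.5-fold lower, to 0.29 for *Ttr*. The log2 fold change of *Cxcl1*, -2.14 with an upper limit of -1.98, was below the summed ratio of every list, of which neutrophils had the lowest with a lower limit of -1.68. Single markers reached similar values: the B cell gene *Cd79a* had a log2 fold change of -2.46 (interval -3.84 to -1.62), and the monocyte gene *Ms4a4c* had -2.00 (interval -3.46 to -1.18). The log2 fold change of *Ccl9*, -1.02, was below the ratio of the Kupffer cell list. The interval of *Ccl9* (-1.14 to -0.90) overlapped those of all the other leukocyte lists, that is, monocyte, neutrophil, B cell, T and NK cell and dendritic cell. *Ccl9* reads per *Clec4f* read were 0.409 in control liver and 0.31 in iFIRKO liver. The part of these cell types in the chemokine values was not tested.

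**Figure D5:**
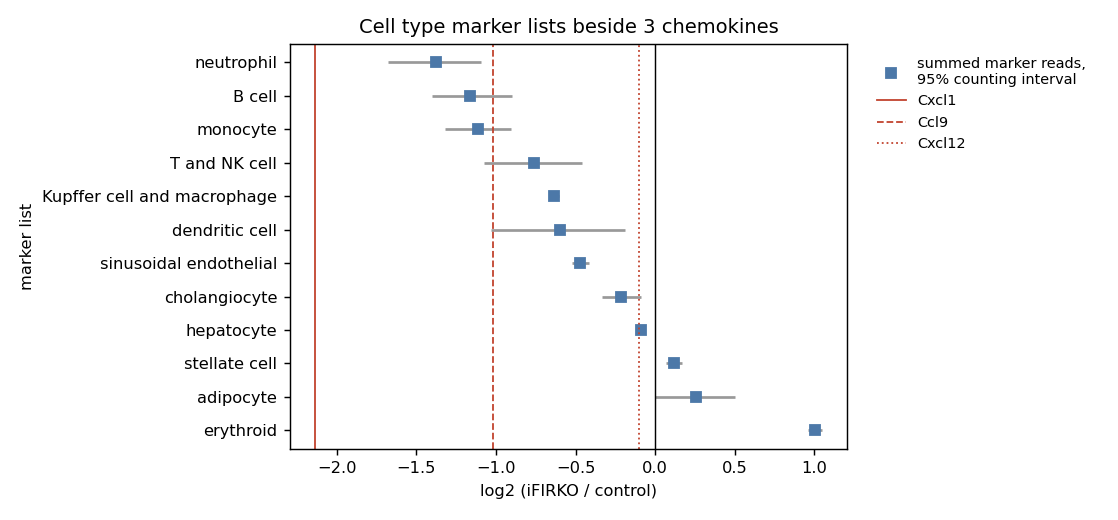
Log2 ratio (iFIRKO over control) of the summed normalized reads of 12 marker lists (blue squares) with exact 95% counting intervals, beside the log2 fold changes of *Cxcl1*, *Ccl9* and *Cxcl12* (vertical lines). Leukocyte lists lie between -1.38 and -0.60, and *Cxcl1* lies below these sums at -2.14, while the single B cell marker *Cd79a* (not drawn) was at -2.46.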

How the data were processed

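Liver mRNA libraries (TruSeq stranded mRNA) of 1 control and 1 iFIRKO sample were compared. The authors deposited log2 normalized read counts per gene symbol, with no negative values, and a 0 was read as no reads. The build is mm10 in the submitters' processing notes, and the aligner, counter, scaling and use of strand are not given in the sources used here. Positions and exon lengths came from GENCODE M21 (93.3% of symbols matched), promoters from RefSeq GRCm38.p6.

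Values were returned to the linear scale, and the commonest low value was read as 1 read pair (21139356 and 20655554 pairs in all). Since 49.2% and 48.6% of low values were whole pairs within 0.01, they were not used as counts, and intervals (Clopper-Pearson for ratios, exact Poisson for levels) rest on rounded pairs. The fold limit of 1.5 is the study's. Duplicate symbols were kept as separate rows. For a listed symbol with several rows, the highest row was used. With 1 library per group no p-value was computed.

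The members and lists were chosen with earlier results of these data known. Named genes were drawn from the members, other chemokine and receptor genes, defining markers, and the 5 nearest to *Cxcl1*. From each other list, the 3 highest and the 3 with the largest absolute log2 fold change could be named. Several of these, such as the highest of the NF-κB subunit list, are not named. Further names were picked after their values were seen, as were the motif and pentamer searches and the regions around the gene groups. Marker lists covered Kupffer cell and macrophage, monocyte, neutrophil, T and NK cell, B cell, dendritic, sinusoidal endothelial, stellate, cholangiocyte, hepatocyte, erythroid and adipocyte genes. The adipocyte list summed to 488 and 581 normalized reads. Some genes of the receptor and interferon-γ lists are not reported here and are not in their counts. The computation of intervals and calls was checked on simulated Poisson counts, in genes with a mean of at least 209 normalized reads. The simulated counts held no variation between animals and no partial pairs. The check therefore says nothing about either, or about genes as scarce as *Ccl2* and *Ccl5*. Alternatives were another pseudocount, the plain ratio, other minimums, scaling by the median ratio or by the reads outside the 20 genes with most reads, summed duplicates and a fold of 2. Computation used scipy 1.17.1, pandas 2.3.3 and numpy 2.4.6 under Python 3.11.15, and plots used matplotlib 3.10.9.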

Additional observations from a re-analysis of the deposited data

How the results depend on the processing

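The number of chemokines more than 1.5-fold lower was 7 of 10 and became 3 with a fold of 2. Under the other 8 settings it lay within 1.5 times of 7, and none was higher under any of the 9 settings. The median log2 fold change of the members ran from -0.87 to -0.82. Single log2 fold changes of members stayed inside their counting intervals under all 5 settings that could change them, with the range widest for *Ccl2* (-1.53 to -0.84) and *Ccl5* (-0.68 to -0.31), and that of *Cxcl1* from -2.15 to -2.08. The lower other chemokines numbered 2, and became 1 with a pseudocount of 41.8 normalized reads or the minimum in both libraries, 0 with a minimum of 209 normalized reads or a fold of 2, and 8 without a minimum. The lower receptors numbered 3, and became 1 with the minimum in both libraries or at 209 normalized reads and 7 without a minimum, where 1 (*Ccr6*, from 1 and 4 read pairs) was higher. Over all genes, 976 were lower and 597 higher, which became 576 and 371 with the larger pseudocount, 2620 and 1960 without a minimum, 440 and 288 with a minimum of 209, and 267 and 209 with a fold of 2. The minimums and the fold limit change how many genes are compared or counted by construction. The scalings moved the median of all genes by at most -0.0123 on the log2 scale and the hepatocyte list ratio to -0.10, outside its narrow interval, while the other marker lists stayed inside theirs. No paired analysis was possible because only a single library represents either genotype. Genes near the minimum, *Ccl2* and *Ccl5* among the members, have the widest counting intervals.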
